A study of Mus musculus with 6 samples.

Results

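In 7 windows of the mouse genome that are rich in recent segmental duplications lay the midpoints of 551 of the 46507 deposited TH2B islands. An island is a broad stretch in which a ChIP library had more reads than a control library. The windows, on build mm9, were the stretches from 175 to 178 Mb of chromosome 2, 60 to 62 Mb and 143 to 148 Mb of chromosome 4, 94 to 96 Mb of chromosome 5, 18 to 25 Mb of chromosome 12, 60 to 68 Mb of chromosome 13 and 3 to 8 Mb of chromosome 14, together 32 Mb. The pair on chromosome 4 is called proximal and distal here. The windows held 173 of 17340 islands of round spermatids, 122 of 15585 of spermatocytes and 256 of 13582 of wild-type germ cells. Each window was set beside the 5 Mb on either side of it, its flanks, which together spanned 63.7 Mb and held 352, 269 and 493 islands in the same order of lists.

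TH2B is a variant of histone H2B made in male germ cells, where it takes the place of much of the ordinary H2B from meiosis onward. Segmental duplications are long blocks of DNA copied within a genome, often in tandem, so that whole gene families lie next to each other in near-identical copies. In such blocks a short sequencing read can match several copies, and an assembly may hold fewer copies than the cell, in which case the reads of several copies fall on one. Several of these windows are known for such families. The proximal window of chromosome 4 lies at the major urinary proteins, which carry pheromones in urine, and the distal one at Pramel genes, relatives of a tumour antigen expressed in germ cells and early embryos, with KRAB zinc-finger genes beside them. The chromosome 2 window holds zinc-finger genes, the chromosome 13 window placental cathepsins (proteases) and KRAB zinc-finger genes, and the chromosome 14 window the alpha-takusan family, known from neurons. RefSeq lists, on the later build GRCm38.p6, 22 Mup genes, all 22 on chromosome 4, 46 Pramel genes, 24 of them on chromosome 4, and 10 cathepsins of the Cts group on chromosome 13. These are counts per chromosome, not per window, since the coordinates of that build were not used. The families are given from general knowledge, and neither their positions on mm9 nor the duplications were checked. Where a window is named by its genes below, this is for orientation only.

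The 6 samples were 3 ChIP and 3 input libraries, 1 library per group. Round spermatids (post-meiotic) and spermatocytes (meiotic) came from adult Th2b+/tag mice, in which 1 of the gene's copies makes TH2B with His, Flag and HA tags at its C-terminus, and were separated on a BSA gradient before ChIP with an anti-HA antibody (Abcam, ab9110), while total male germ cells of adult wild type mice were used for ChIP with an antibody to TH2B. The protocol in the labels speaks of pooled fractions of both tagged cell types, which was read as pooled within a type. The wild-type input is labelled with the TH2B antibody but is an input by its title, the tagged inputs' titles end in an unexplained 2, and HA ChIP of untagged cells was not analysed here. None of the lists gives the name of its control, and the input matched by cells was assumed. The wild-type list thus differs from both tagged lists in genotype, antibody and cells at once, and these cannot be told apart. Single libraries leave no replicate error and allow no test, and the intervals given are 95% intervals of counting error only. Reads in islands summed to 3061563 ChIP and 2400549 control reads in round spermatids, 2375595 and 1966489 in spermatocytes and 1872812 and 1333472 in wild-type germ cells.

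Taken over all 7 windows, islands were about as frequent as beside them. They had a higher density of input reads, however, and included more very long islands. Their median folds were slightly lower, with intervals that met those of the flanks in both tagged lists. Round spermatids had 5.41 islands per Mb in the windows and 5.52 in the flanks, a ratio of 0.979 (interval 0.811 to 1.18). Spermatocytes had 3.81 and 4.22, a ratio of 0.903 (0.723 to 1.12), and wild-type germ cells had 8 and 7.73, a ratio of 1.03 (0.886 to 1.21). All 3 intervals included 1. The share of bases covered by islands was 2.35% in the windows and 2.09% in the flanks of round spermatids, a ratio of 1.12. It was 1.61% and 1.65% in spermatocytes, a ratio of 0.976. In wild-type germ cells 3.20% of the windows and 2.14% of the flanks were covered, a ratio of 1.49. That share rests on few islands: without those of over 2 times the median control density of their list, the wild-type ratio was 1.04. Median length was 3200 bp in the windows and 3600 bp in the flanks of round spermatids, 3400 and 3600 bp in spermatocytes, and 2700 and 2600 bp in wild-type germ cells.

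These pooled ratios joined windows that went opposite ways. Without the distal window of chromosome 4 the density ratios were 0.787, 0.636 and 0.795, and the wild-type covered share was 0.908 times that of the flanks. With flanks of 2 Mb the spermatocyte density ratio was 1.42 (1.05 to 1.93). Against the rest of the autosomes, the density ratio was 0.811, 0.627 and 1.49. Of the 7 windows, the interval of the density ratio lay above 1 in 1, 2 and 2 windows and below 1 in 2, 2 and 2 windows of round spermatids, spermatocytes and wild-type germ cells. The interval lay above 1 for the distal window of chromosome 4 in all 3 lists, for the chromosome 13 window in spermatocytes and for the chromosome 5 window in wild-type germ cells. It lay below 1 for the chromosome 14 window in all 3 lists, for the chromosome 12 window in both tagged lists and for the chromosome 2 window in wild-type germ cells. Bins of 1 Mb without an island in any list, such as that from 175 to 176 Mb of chromosome 2, were left out. In round spermatids the bins with at least 2 times the list's median number of islands were 6 of 31 window bins (19.4%). Such bins were 12 of 63 flank bins and 20% of the 2395 autosomal bins counted. In the windows of spermatocytes they were 2 (6.45%), against 9 (14.3%) in the flanks and 26.9% of the autosomal bins. In those of wild-type germ cells they were 10 (32.3%), against 18 (28.6%) and 15.5%. The wild-type share was thus near that of its flanks.

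**Figure D1:**
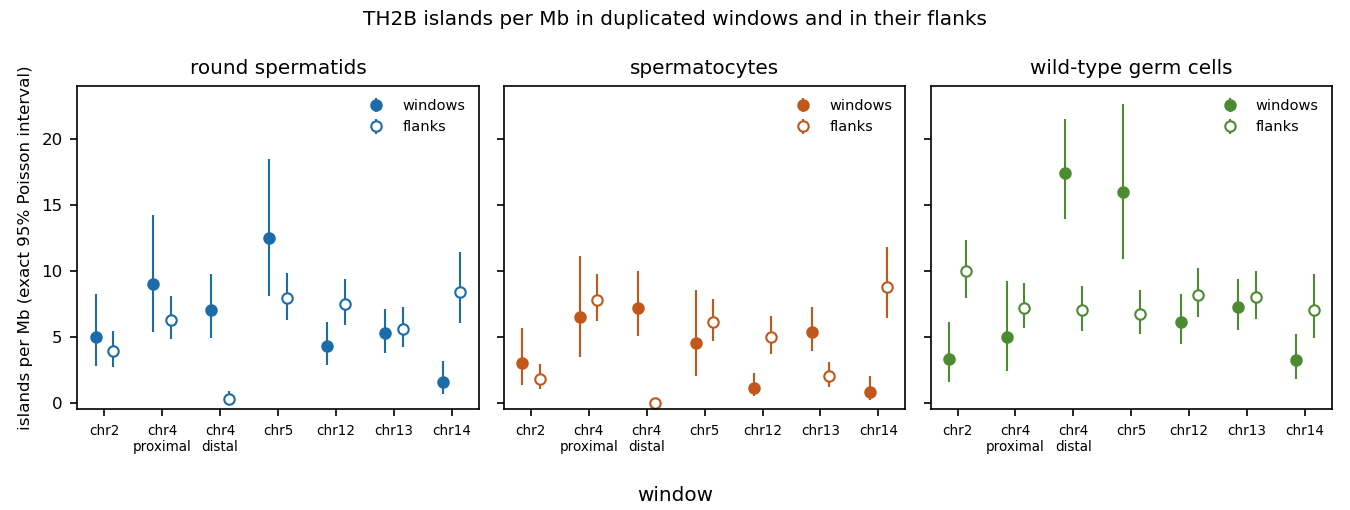
Islands per Mb in each window and in its flanks, in 3 lists, with exact Poisson 95% intervals (counting error). The distal window of chromosome 4 stands highest over its flanks in all 3 lists, with 7.0, 7.2 and 17.4 islands per Mb against 0.3, 0 and 7.0.

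The distal window of chromosome 4, around the Pramel and zinc-finger genes, had the highest ratio to its flanks of the 7 windows in round spermatids and wild-type germ cells, and in spermatocytes the only flanks with 0 islands. In round spermatids it held 35 islands in 5 Mb and its flanks 3 in 10 Mb, or 7.0 and 0.3 islands per Mb, a ratio of 23.3 (7.36 to 119). In spermatocytes it held 36 islands and the flanks 0 of 10 Mb, for which the interval of the ratio began at 18.5. Set against a floor of 3 counts over the flanks in place of 0, the window was 24-fold higher. That value is set by the floor and is not a lower bound. In wild-type germ cells it held 87 islands and the flanks 70, or 17.4 and 7.0 per Mb, a ratio of 2.49 (1.79 to 3.46). The large ratios of the tagged lists go with nearly island-free surroundings. The window's own 7.0 and 7.2 islands per Mb were near the autosomal averages of 6.65 in round spermatids and 6.05 in spermatocytes, whereas the wild-type 17.4 stood above an average of 5.41. In the 20 Mb before the window there were 10, 2 and 135 islands of round spermatids, spermatocytes and wild-type germ cells. In the 7.63 Mb from its end to the end of the chromosome there were 4, 0 and 63. Within the window the islands of the 5 successive 1 Mb bins numbered 17, 6, 7, 5 and 0 in round spermatids, 8, 3, 14, 8 and 3 in spermatocytes, and 4, 12, 22, 33 and 16 in wild-type germ cells. The wild-type bin of 33 islands was the highest of the 2395 autosomal bins of that list. The 3 lists placed their peak in different bins, round spermatids in the first, spermatocytes in the third and wild-type germ cells in the next one, from 146 to 147 Mb.

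**Figure D2:**
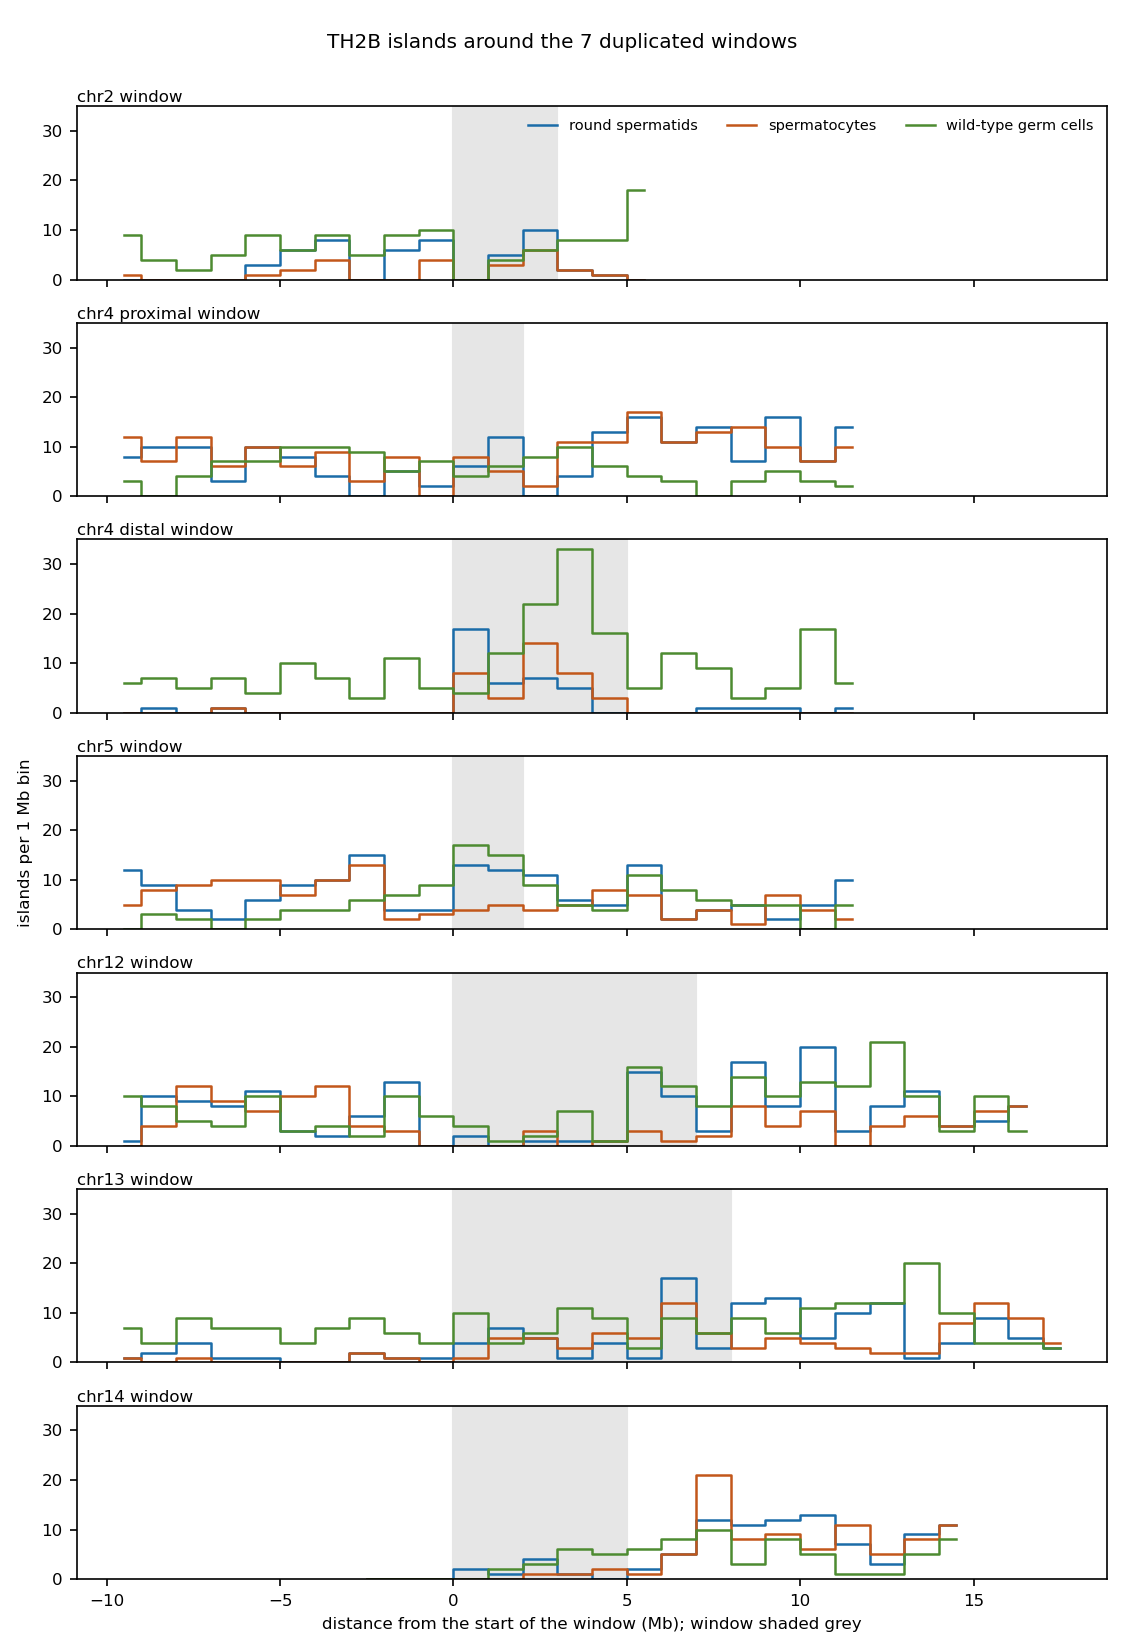
Islands per 1 Mb bin by distance from each window's start, window shaded in grey, for 3 lists. Beside the distal window of chromosome 4, the tagged lists are near 0 on both sides, and wild-type islands are most frequent from 146 to 147 Mb, with 33.

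Many of the long islands of the windows lay in the distal window of chromosome 4. In spermatocytes 7 of its 36 islands were at least 10 kb long and in wild-type germ cells 13 of its 87, but in round spermatids 0 of 35. Wholly between 146 and 147 Mb lay 7 wild-type islands of at least 10 kb, at chr4:146505601-146516600, chr4:146519201-146551000, chr4:146551801-146566200, chr4:146681401-146696200, chr4:146750401-146780400, chr4:146790201-146809200 and chr4:146810001-146839400, with deposited folds over control of 1.22, 1.09, 1.09, 1.15, 1.09, 1.07 and 1.08. The island chr4:146790201-146809200 had 3667 ChIP and 3467 control reads, or 182 control reads per kb, which was 5.56 times the median of its list. In the same place spermatocytes had chr4:146790001-146808600, with 2176 ChIP and 2385 control reads, or 128 per kb, 5.64 times the median of their list, and a fold of 1.07. Relative to their own medians, both lists had nearly equal control densities there. Over all 24 overlapping pairs of these 2 lists in the windows, the ratio of spermatocytes over wild-type germ cells had a median of 1.32. It ranged from 0.633 to 3.04, and 8 pairs lay within 1.3-fold. The highest folds in the window were on short islands: 2.25 (1.58 to 3.24) at chr4:144168001-144170000 in round spermatids, 1.72 (1.24 to 2.40) at chr4:145042601-145045400 in spermatocytes and 2.41 (1.64 to 3.6) at chr4:145418201-145419600 in wild-type germ cells. These and the islands named as highest below had at least 50 ChIP reads and were chosen for their value, so they describe the range.

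The chromosome 5 window stood above its flanks in islands per Mb in wild-type germ cells, and held long islands of round spermatids and wild-type germ cells. There were 25 islands of round spermatids, or 12.5 per Mb in the window and 7.9 in the flanks, a ratio of 1.58 (0.967 to 2.51). Wild-type germ cells had 32 islands, 16 and 6.7 per Mb, a ratio of 2.39 (1.52 to 3.69). Spermatocytes had 9 islands, 4.5 and 6.1 per Mb, a ratio of 0.738 (0.322 to 1.49). The window covered 10.5% of its bases with round spermatid islands, against 3.02% in the flanks, and 7.26% with wild-type islands, against 1.87%. Median length in round spermatids was 5600 bp in the window and 3400 bp in the flanks. Control density there was the highest of any window of that list, with a median of 41.4 reads per kb in the window and 25 in the flanks, and the median fold was 1.28 in the window and 1.47 in the flanks. The longest round spermatid island, chr5:94342801-94369800, had 2175 ChIP and 2129 control reads and a fold of 1.08 (1.02 to 1.15), at 3.11 times the list's median control density. Wild-type germ cells had chr5:94345801-94373800, with 2902 and 2778 reads and a fold of 1.06 (1 to 1.11), at 3.02 times their median.

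The only 3 stretches with an island in every list were all in the chromosome 5 window. Stretches were made by merging overlapping islands of the 3 lists. The first, chr5:94342601-94373800, had folds of 1.08 in round spermatids, 1.49 in spermatocytes and 1.06 in wild-type germ cells, but the spermatocyte island there had only 70 ChIP reads and touched its edge. At chr5:94393801-94410000 the folds were 1.13, 1.29 and 1.25, and at chr5:95915801-95919600 they were 1.36, 1.44 and 1.69 in the same order of lists. Only at chr5:95915801-95919600 did islands of all 3 lists share bases. In the other stretches the spermatocyte and wild-type islands did not overlap each other and were joined through the round spermatid island. The highest fold of the window with at least 50 ChIP reads was 1.87 (1.27 to 2.79) at chr5:95126001-95127600 in round spermatids, 2.13 (1.42 to 3.24) at chr5:95160201-95162400 in spermatocytes and 1.97 (1.34 to 2.95) at chr5:94624801-94626200 in wild-type germ cells.

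The chromosome 13 window, with cathepsin and zinc-finger genes, stood above its flanks in 1 list. In spermatocytes it held 43 islands, 5.38 per Mb in the window and 2.0 in the flanks, a ratio of 2.69 (1.55 to 4.82). The ratio goes with sparse flanks, since the window was at 0.889 times the autosomal average of that list and its flanks at 0.331 times. In round spermatids 42 islands gave 5.25 and 5.6 per Mb, a ratio of 0.938 (interval 0.613 to 1.42). In wild-type germ cells 58 islands gave 7.25 and 8.0 per Mb, a ratio of 0.906 (0.635 to 1.29). Its flanks were unequal, with 0.8, 0.6 and 6.0 islands per Mb to the left and 10.4, 3.4 and 10 to the right in the 3 lists. Control density was close to the list in each, at 1.12, 1.10 and 1.06 times the list median. The 2 tagged lists had most islands in the bin from 66 to 67 Mb, 17 in round spermatids and 12 in spermatocytes, where wild-type germ cells had 9. The window also had the highest fold of all the islands that were named by the rule, 4.55 (2.62 to 8.38) at chr13:67014001-67015000 in wild-type germ cells, from 72 ChIP and 16 control reads. In spermatocytes the highest was 2.58 (1.83 to 3.70) at chr13:66744001-66747200, which overlapped a round spermatid island, and in round spermatids 2 (1.36 to 2.96) at chr13:62325801-62327600.

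The chromosome 14 window had fewer islands per Mb than its flank in every list, and the chromosome 12 window fewer than its flanks in both tagged lists. The chromosome 14 window had 8, 4 and 16 islands in 5 Mb, and no flank on the left, because islands on the autosomes begin at 3 Mb of the sequence. Round spermatids had 1.6 islands per Mb in the window and 8.4 in the flank, a ratio of 0.190 (0.0772 to 0.411). Spermatocytes had 0.8 and 8.8, a ratio of 0.0909 (0.0237 to 0.250), and wild-type germ cells 3.2 and 7.0, a ratio of 0.457 (0.236 to 0.848). All 28 stretches of that window belonged to 1 list each. Its longest wild-type island, chr14:5065001-5072200, had 82.5 control reads per kb and a fold of 1.19. The chromosome 12 window had 30, 8 and 43 islands in 7 Mb. It held 4.29 per Mb of round spermatids and its flanks 7.5, a ratio of 0.571 (0.361 to 0.883). In spermatocytes these were 1.14 and 5.0, a ratio of 0.229 (interval 0.0936 to 0.486), and in wild-type germ cells 6.14 and 8.2, a ratio of 0.749 (0.505 to 1.10). The flanks were unequal, with 4.8, 5.8 and 5.0 islands per Mb to the left and 10.2, 4.2 and 11.4 to the right in the 3 lists. The round spermatid window was therefore close to its left flank, and the wild-type window was above its left flank and at 1.14 times the autosomal average. Its islands crowded at one end: the bins from 23 to 25 Mb held 15 and 10 islands in round spermatids, 3 and 1 in spermatocytes, and 16 and 12 in wild-type germ cells. There round spermatids had chr12:24788201-24790200 with a fold of 1.99 (1.40 to 2.87), which overlapped a wild-type island.

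The chromosome 2 window and the proximal window of chromosome 4 gave few islands. In the chromosome 2 window, 15 islands of round spermatids, or 5.0 per Mb, stood against 3.89 in the flanks, a ratio of 1.29 (0.651 to 2.43). In spermatocytes 9 islands, or 3.0 per Mb, stood against 1.83, a ratio of 1.64 (interval 0.639 to 3.94). In wild-type germ cells 10 islands, or 3.33 per Mb, stood against 9.95, a ratio of 0.335 (0.155 to 0.646). The flanks of this window had 5.6, 2.0 and 7.8 islands per Mb to the left and 1.6, 1.6 and 12.8 to the right in the 3 lists. The round spermatid window was therefore below its left flank, and it was at 0.752 times the autosomal average. Its first Mb, from 175 to 176 Mb, held 0 islands in each of the 3 lists. The proximal window of chromosome 4, at the Mup genes, held 18, 13 and 10 islands. Those were 9.0 per Mb in the window and 6.3 in the flanks of round spermatids, a ratio of 1.43 (0.796 to 2.44). They were 6.5 and 7.8 in spermatocytes, a ratio of 0.833 (0.425 to 1.51), and 5.0 and 7.2 in wild-type germ cells, a ratio of 0.694 (0.319 to 1.35). Those 3 intervals included 1. Flanks of the Mup window had 3.8, 5.2 and 8.2 islands per Mb to the left and 8.8, 10.4 and 6.2 to the right. At an FDR of at most 0.0001 the spermatocyte ratio was 0.365 (0.00821 to 2.72) in the chromosome 2 window, an interval that held both 1 and the 1.64 above, and 0.222 (0.0261 to 0.851) in the Mup window. Its longest spermatocyte island, chr4:60064601-60094000, spanned 29400 bp with a fold of 1.08 (1.01 to 1.16), and the longest wild-type island, chr4:60077401-60088800, lay inside it with 1.11 (1 to 1.22). The highest fold of a round spermatid island there was 2.26 (1.61 to 3.21) at chr4:61251401-61254800, from 111 ChIP and 52 control reads.

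A measure that set the windows apart in every list was the density of input reads in the islands. The median over islands was 29.9 control reads per kb in the windows and 25.2 in the flanks of round spermatids, a ratio of 1.18. It was 28.0 and 22.7 in spermatocytes, a ratio of 1.23, and 40.5 and 33.4 in wild-type germ cells, a ratio of 1.21. By window it was above the flanks in 7 of 7 windows in round spermatids, 6 of 6 compared in spermatocytes and 7 of 7 in wild-type germ cells. The smallest ratio was 1.03, in the chromosome 13 window of wild-type germ cells. The next was 1.04, in the distal window of chromosome 4 in round spermatids, whose flanks held 3 islands. Window by window, the intervals of the medians lay apart in the chromosome 5 and chromosome 12 windows of round spermatids. In spermatocytes they lay apart in the proximal window of chromosome 4. In wild-type germ cells they lay apart in the distal window of chromosome 4 and in the windows of chromosomes 5, 12 and 14. In all other windows the intervals overlapped or could not be formed. The intervals of the pooled medians did not overlap in any list, at 28.3 to 31.2 in the windows and 24.7 to 25.7 in the flanks of round spermatids, 25.5 to 30 and 22.2 to 23.1 in spermatocytes, and 38.8 to 42.3 and 32.9 to 33.9 in wild-type germ cells. Densities are set side by side within a list only, because they grow with the depth of the control library.

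**Figure D3:**
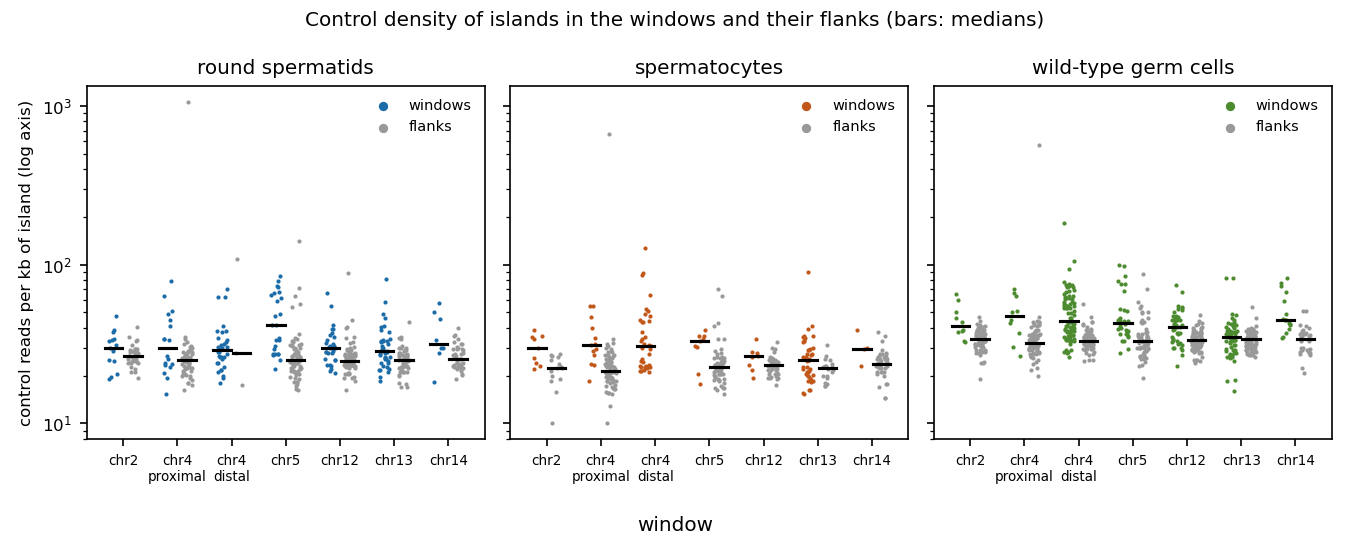
Control reads per kb of island in each window and its flanks, in 3 lists, on a log axis. The medians of the pooled windows were 29.9, 28.0 and 40.5 and those of the flanks 25.2, 22.7 and 33.4.

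A tail of islands with a very high density of input reads lay in the windows. Over 2 times the list's median control density lay 20 of 173 window islands of round spermatids (11.6%), against 8 flank islands (2.27%) and 4.36% of the whole list. In spermatocytes it was 12 of 122 (9.84%), against 3 (1.12%) and 3.41% of the list, and in wild-type germ cells 32 of 256 (12.5%), against 3 (0.609%) and 1.39% of the list. These islands held 45.8%, 45.2% and 48.4% of the control reads of the window islands. They were absent from the chromosome 2 window in all 3 lists. Without them the median control density was still above the flanks, by 1.14, 1.18 and 1.17 times.

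Long islands were also a larger share in the windows, with intervals that met in spermatocytes and lay apart in the other lists. At least 10 kb long were 12 of 173 window islands of round spermatids (6.94%, 3.64 to 11.8), against 3 flank islands (0.852%, 0.176 to 2.47) and 0.779% of the list. In spermatocytes it was 8 of 122 (6.56%, 2.87 to 12.5), against 3 (1.12%, 0.231 to 3.22) and 0.706%, and in wild-type germ cells 18 of 256 (7.03%, 4.22 to 10.9), against 0 of 493 (at most 0.745%) and 0.390%. They lay in the chromosome 5 window (8, 0 and 3), the proximal window of chromosome 4 (3, 1 and 1), the distal one (0, 7 and 13), the chromosome 2 window (1, 0 and 0) and the chromosome 12 window (0, 0 and 1). They made up 26.8%, 24.5% and 31.1% of the island bases of the windows. Of the 100 longest autosomal islands of each list, 12, 8 and 26 lay in the windows and 4, 3 and 1 in the flanks, while the windows make up 1.29% of the autosomes. Their folds were low, with medians of 1.12, 1.12 and 1.11 and a highest value of 1.31, 1.15 and 1.23.

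The median fold of the window islands as a whole was slightly lower than that of the flanks, but not in every window. By window it was below the flanks in 5, 4 and 5 windows of round spermatids, spermatocytes and wild-type germ cells, and above in 2 windows of each list. The median deposited fold was 1.42 in the windows and 1.45 in the flanks of round spermatids, 1.43 and 1.47 in spermatocytes and 1.40 and 1.44 in wild-type germ cells. The intervals of these medians met in round spermatids and spermatocytes and lay apart in wild-type germ cells, at 1.36 to 1.41 in the windows and 1.42 to 1.46 in the flanks. The fold of the summed reads, which gives weight to islands with many reads, differed more. It was 1.27 (1.25 to 1.29) in the windows and 1.43 (1.41 to 1.45) in the flanks of round spermatids. Spermatocytes had 1.28 (1.26 to 1.31) and 1.49 (1.46 to 1.51), and wild-type germ cells 1.24 (1.22 to 1.25) and 1.42 (1.41 to 1.44). The intervals of the summed folds lay apart in each list. Folds of 2 or more were found on 6 window islands of round spermatids (3.47%), against 23 flank islands (6.53%) and 6.37% of the list. In spermatocytes it was 5 (4.10%), against 22 (8.18%) and 8.84%, and in wild-type germ cells 9 (3.52%), against 22 (4.46%) and 6.25%. The intervals of windows and flanks met in each list. Islands with many control reads pass the caller's threshold at a lower fold, so fold was also compared among islands with 50 to 100 control reads. There the median fold was 1.48 in the windows and 1.5 in the flanks of round spermatids (85 and 202 islands), 1.49 and 1.52 in spermatocytes (74 and 167) and 1.47 and 1.49 in wild-type germ cells (102 and 282). The intervals of these medians met in each list.

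The share of tagged islands that overlapped a wild-type island was larger in the windows than in the flanks, with intervals that met, and the share that overlapped an island of the other tagged list was not. With at least 1 bp in common, 30 of 173 round spermatid islands overlapped a wild-type island (17.3%, interval 12 to 23.8), against 9.38% (6.54 to 12.9) in the flanks and 4.88% in the list. For spermatocytes it was 21 of 122 (17.2%, 11 to 25.1), against 10.4% (7.03 to 14.7) and 4.48%. Of the wild-type islands, 31 of 256 overlapped a round spermatid island (12.1%, 8.38 to 16.7), against 6.90% (4.82 to 9.50) and 6.30%, and 24 a spermatocyte island (9.38%, 6.10 to 13.6), against 5.68% (3.81 to 8.10) and 5.18%. Between the tagged lists, 16 of 173 islands of round spermatids shared bases with one of spermatocytes (9.25%, 5.38 to 14.6), against 10.8% (7.75 to 14.5) and 15.5% of the list, and 16 of 122 spermatocyte islands a round spermatid one (13.1%, 7.69 to 20.4), against 14.5% (10.5 to 19.3) and 17.2%. The intervals of windows and flanks overlapped in each of the 6 pairs, and the part of island length and frequency in these shares was not tested.

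**Figure D4:**
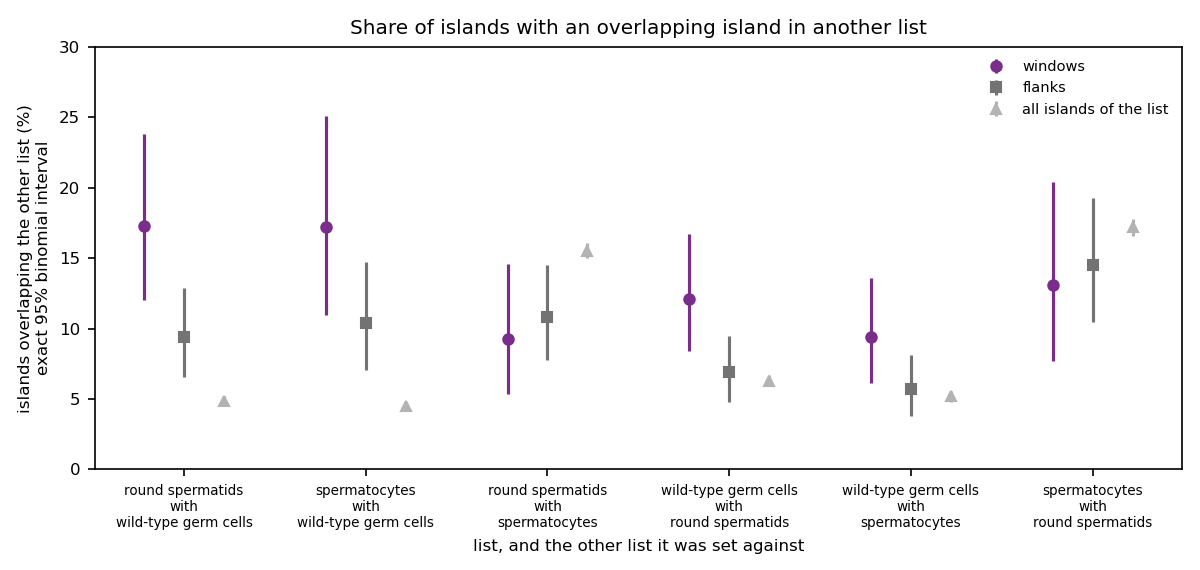
Percent of islands overlapping an island of another list by at least 1 bp, in the windows, the flanks and the whole list, with exact 95% intervals, for 6 ordered pairs of lists. Pairs with the wild-type list are higher in the windows (17.3% and 17.2% of tagged islands) than in the flanks (9.38% and 10.4%).

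Merged over the lists, the windows held 480 stretches, of which 418 had islands of 1 list, 59 of 2 and 3 of all 3. Pairs from round spermatids and wild-type germ cells made up 8 in the chromosome 12 window and 8 in the chromosome 5 window, and pairs from spermatocytes and wild-type germ cells 10 in the distal window of chromosome 4. Where 16 stretches had both tagged lists, the median fold was 1.31 in round spermatids and 1.49 in spermatocytes, and the ratio of the first to the second had a median of 0.915 and a range from 0.514 to 1.37. It was above 1 in 4 of 16 stretches, and none of the 16 reached a ratio of 2 or more. The lowest, 0.514, came close to a 2-fold lower value. The islands set side by side often shared only part of their bases, and only 6 of the 16 pairs met the stricter overlap rule. In the chromosome 5 window, a round spermatid island of 27000 bp shared 1600 bp with the spermatocyte island. Since islands with many control reads pass the threshold at a lower fold, this ratio does not compare the tagged lists at the same sites. Where islands of 2 lists overlapped, the control density relative to the list's median was compared. The ratio of round spermatids over spermatocytes had a median of 1.03 and a range from 0.509 to 2.31 (16 pairs). That of round spermatids over wild-type germ cells had a median of 1.15 and a range from 0.62 to 2.56 (32 pairs), and that of spermatocytes over wild-type germ cells 1.32 and 0.633 to 3.04 (24 pairs).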

How the data were processed

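TH2B ChIP-seq of mouse male germ cells was deposited as 3 island lists, 1 per ChIP library. SICER was run on mm9, per the submitters' processing notes. The deposited lists carry a window of 200 bp and a gap of 600 bp in their names. Aligner and read filters are not given in the sources used. The 8 columns have no header and were identified by their values. Per island, the authors deposited counts of ChIP and of control reads as whole numbers, a p-value and an FDR for them (every FDR at most 0.01), and a fold over control. The deposited fold matched the count ratio scaled by a list constant, 0.944 for round spermatids, 0.854 for spermatocytes and 0.989 for wild-type germ cells.

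An island belonged to a window or flank by its midpoint, and positions are counted from 1. Flanks were shortened at the chromosome end (chromosome 2, right side, 3.75 Mb) and below 3 Mb, where the autosomes held 0 islands. Chromosome lengths of mm9 came from GenomeInfoDb 1.38.1. The density ratio has an exact conditional binomial interval, islands per Mb an exact Poisson interval, shares Clopper-Pearson intervals and medians intervals from order statistics, all at 95%. They cover counting error only. Groups followed the cell type, genotype and antibody labels and, for the inputs, the titles. Named islands were the longest and, among those of 50 or more ChIP reads, the highest in fold of each window and list, plus islands of at least 10 kb and stretches in all 3 lists. The windows, members and rules were chosen with earlier results of these data known. Computations used scipy 1.17.1, pandas 2.3.3 and numpy 2.4.6 under Python 3.11.15, with plots by matplotlib 3.10.9, and were tested on simulated data. Alternatives were an FDR of at most 0.0001, flanks of 2 Mb, the rest of the autosomes, and leaving out dense islands or single windows. Others were the median in place of the summed fold and an overlap of 50% of both islands. Islands were also placed by any overlap of at least 1 bp in place of the midpoint. Reads outside islands were not used here, so library depth is unknown and absence of an island is not absence of TH2B.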

Additional observations from a re-analysis of the deposited data

Results flagged for a closer look

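A few windows stood on opposite sides of their flanks in different lists, with counting-error intervals of the density ratio that did not overlap. This way of picking windows was chosen after seeing the data. None of these differences was tested, since each list is 1 library. In the chromosome 13 window the ratio in round spermatids (0.938, interval 0.613 to 1.42) was 0.349 times that in spermatocytes (2.69, 1.55 to 4.82), and the ratio in spermatocytes was 2.97 times that in wild-type germ cells (0.906, 0.635 to 1.29). In the chromosome 5 window the ratio in spermatocytes (0.738, 0.322 to 1.49) was 0.309 times that in wild-type germ cells (2.39, 1.52 to 3.69). In the chromosome 2 window the ratio in round spermatids (1.29, 0.651 to 2.43) was 3.85 times that in wild-type germ cells (0.335, 0.155 to 0.646), where the intervals nearly touched. The flanks differ between lists as well: those of the chromosome 13 window held 5.6, 2.0 and 8.0 islands per Mb in round spermatids, spermatocytes and wild-type germ cells. In round spermatids the chromosome 2 window, at 5.0 islands per Mb, lay between its left flank (5.6) and its right flank (1.6).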

How the results depend on the processing

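Of 264 alternatives, 197 stayed within the spread of the value reported, 66 moved and 1 reversed, and the cause was not tested. A ratio whose reported interval included 1 was not counted as reversed when it crossed 1. The spermatocyte density ratio of 0.903 (0.723 to 1.12) thus counted as moved at 1.42. Shares of bins and of overlaps have no such value to cross. Of the 36 alternatives for density, 15 lay above 1 and 21 below. The control density was above that of the flanks in all 36 of its alternatives. The median fold was below that of the flanks in 37 of 39. These alternatives reuse the same islands of each list and are not independent. Placing islands by any overlap in place of the midpoint left both values as reported. The covered share in wild-type germ cells reversed without the distal window of chromosome 4 (0.908). Leaving out 1 window at a time gave density ratios of 0.787 to 1.16 in round spermatids, 0.636 to 1.14 in spermatocytes and 0.795 to 1.15 in wild-type germ cells, covered shares of 0.942 to 1.38, 0.561 to 1.28 and 0.908 to 1.72, and a wild-type control density ratio of 1.16 to 1.29. At an FDR of at most 0.0001 the control density ratio was 1.11 in round spermatids and 1.10 in spermatocytes, where density was 0.617 and covered share 0.620. With flanks of 2 Mb the spermatocyte values were 1.42 for density, 1.56 for covered share and -0.113 for the fold difference. Against the rest of the autosomes density was 0.811 in round spermatids, 0.627 in spermatocytes and 1.49 in wild-type germ cells, covered share 0.697 in spermatocytes and 2.18 in wild-type germ cells, and the spermatocyte fold difference -0.0862. Without dense islands the covered shares were 0.855, 0.744 and 1.04. The median fold in place of the summed fold was 1.42, 1.43 and 1.40, and at 50 to 100 control reads, a choice made after seeing the data, the wild-type fold difference was -0.0168. The overlap shares moved under stricter rules, except for 1 window share, that of spermatocytes with wild-type germ cells at the stricter FDR (12.8%, interval 4.3 to 27.4). At 50% of both islands they were, in the windows and the flanks, 3.47% and 5.97% for round spermatids with spermatocytes, 6.36% and 3.98% with wild-type germ cells, 4.92% and 7.81% for spermatocytes with round spermatids, 4.92% and 4.09% with wild-type germ cells, 4.30% and 2.84% for wild-type germ cells with round spermatids and 2.34% and 2.23% with spermatocytes. At an FDR of at most 0.0001 they were 2.74% and 7.10%, 6.85% and 4.14%, 5.13% and 8.73%, 12.8% and 5.56%, 5.05% and 3.33%, and 5.05% and 3.33%, with the pairs in the same order. No ratio could be formed for spermatocytes in the distal window of chromosome 4, whose flanks held 0 islands. No paired analysis was possible because each group had 1 library. Depth outside islands is unknown, so a sparse window cannot be told from one with few placed reads.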

Other observations

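Pooled over the windows, neighbouring wild-type islands lay closer together than in the flanks, and those of the tagged lists did not. The median gap between neighbours was 61.2 kb in the windows and 54 kb in the flanks of round spermatids, 82.8 and 74.4 kb in spermatocytes, and 38 and 77.4 kb in wild-type germ cells. Gaps of at most 10 kb made up 28 of 166 gaps in the windows of round spermatids (16.9%, interval 11.5 to 23.4), against 40 of 340 in the flanks (11.8%, 8.54 to 15.7). In spermatocytes they made up 15 of 115 (13%, 7.49 to 20.6), against 29 of 258 (11.2%, 7.66 to 15.7), and in wild-type germ cells 55 of 249 (22.1%, 17.1 to 27.8), against 42 of 480 (8.75%, 6.38 to 11.6). The wild-type intervals lay apart and those of the tagged lists met. Of the 256 wild-type window islands, 87 lay in the distal window of chromosome 4 and 32 in the chromosome 5 window. These windows held 17.4 and 16 wild-type islands per Mb, and their part in the short gaps was not tested. A gap below the caller's own joining distance cannot occur, so closely spaced islands and 1 long island differ by that setting.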
